A study of Mus musculus with 6 samples.

Results

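Of the 54232 genes in the deposited count tables, 10 genes of the circadian clock are described here: the output and repressor genes Nr1d1, Dbp, Per1, Per2, Per3, Cry1, Cry2, Bhlhe40, Bhlhe41 and Nfil3. They were taken by name. Nr1d1 and Dbp were chosen because their measured levels were higher in fx/fx tumors in this same comparison, so their differences are given as a description, with no test. The other 8 were chosen as members of the same pathway, with earlier results of these data known. All 10 passed the filter on low counts, which kept 16752 genes.

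The libraries came from tumors of NIC+ mice, 3 with the genotype CdGAP wt/wt and 3 with CdGAP fx/fx, numbered within a genotype as the labels number them (wt1 to wt3, fx1 to fx3). NIC mice express an activated ErbB2 receptor together with Cre recombinase, from 1 transcript, under the MMTV promoter in mammary epithelium, and both genotypes carry this transgene. CdGAP is a GTPase-activating protein of small GTPases, encoded by Arhgap31. The labels give the alleles only as wt/wt and fx/fx, and Cre made from the transgene acts only in the cells that express it, so other cells of a tumor are not targeted. The sources used here give neither the age of the mice nor the time of day at which tumors were taken, and the labels do not say that each library came from a separate animal. p-values therefore measure the spread between these libraries, which may be technical.

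The mammalian clock is a feedback loop. The activators CLOCK (or NPAS2) and BMAL1, the product of Arntl, bind E-boxes in the Per, Cry, Nr1d1 and Dbp genes and raise their transcription, and PER and CRY proteins return to block the activators. REV-ERB alpha, the product of Nr1d1, represses Arntl, Npas2, Cry1 and Nfil3 through elements that ROR receptors activate, while DBP activates and NFIL3 represses genes that carry a D-box. BHLHE40 and BHLHE41 compete at E-boxes. Most of these transcripts rise and fall over the day in peripheral tissues, so the phase at which a tissue is taken can enter their levels.

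The gene upstream regions below are shown because they hold letters that clock proteins are known to recognise, in genes whose values are given in the following paragraphs. The sequences are from RefSeq on GRCm38.p6, run 5′ to 3′ on the strand of the gene and cover the 250 bases before its annotated start. Capitals mark motif matches on either strand.
Nr1d1, chr11:98775378-98775627, minus strand: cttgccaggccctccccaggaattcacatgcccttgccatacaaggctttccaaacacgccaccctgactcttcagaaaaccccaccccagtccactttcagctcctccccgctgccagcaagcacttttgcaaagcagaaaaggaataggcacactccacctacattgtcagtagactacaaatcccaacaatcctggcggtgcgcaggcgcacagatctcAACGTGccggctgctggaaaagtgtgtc
Per3, chr4:151044666-151044915, minus strand: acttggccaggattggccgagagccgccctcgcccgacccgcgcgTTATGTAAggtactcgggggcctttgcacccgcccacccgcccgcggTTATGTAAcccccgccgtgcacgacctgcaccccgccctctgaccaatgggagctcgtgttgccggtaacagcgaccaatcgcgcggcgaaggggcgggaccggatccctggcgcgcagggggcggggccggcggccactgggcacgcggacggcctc
Bhlhe41, chr6:145865421-145865670, minus strand: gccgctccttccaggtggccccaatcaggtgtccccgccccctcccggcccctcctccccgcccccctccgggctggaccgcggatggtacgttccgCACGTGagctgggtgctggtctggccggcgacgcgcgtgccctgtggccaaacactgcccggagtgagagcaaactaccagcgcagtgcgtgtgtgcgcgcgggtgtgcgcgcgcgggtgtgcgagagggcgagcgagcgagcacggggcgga
Cry1, chr10:85185055-85185304, minus strand: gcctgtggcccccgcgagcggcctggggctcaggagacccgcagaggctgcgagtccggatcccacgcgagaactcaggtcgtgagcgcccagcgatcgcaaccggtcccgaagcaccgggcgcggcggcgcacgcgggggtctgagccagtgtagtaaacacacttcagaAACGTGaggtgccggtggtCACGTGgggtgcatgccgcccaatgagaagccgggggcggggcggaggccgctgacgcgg
Arntl, 30 bases just after the start, chr7:113207530-113207559, plus strand: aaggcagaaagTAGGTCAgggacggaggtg

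Motifs were searched on both strands in windows of 300 bases, 250 before and 50 after the start, which the reference table held for 8 of the 10 genes (not Per2 and Bhlhe40). The E-box CACGTG, found in 7.15% of all 32851 windows, was present in Per1, Cry1 and Bhlhe41. A variant E-box, CACGTT or AACGTG on the other strand, was found in 4.68% of windows and was present in Nr1d1, Cry1 and Cry2. Per3 held the D-box TTATGTAA at 2 places, positions -205 and -158 from the start. A D-box (TTATGTAA or TTACGTAA) was found in 1.06% of all windows, and at 2 or more places in 0.0244%. The core of the ROR element, TAGGTCA or TGACCTA, was found in 2.61% of windows and was present in Nfil3 and, after the start, in Arntl. A second Per1 window, at a later start, held the cAMP response core TGACGT, which 7.51% of windows hold. The Dbp window held none of these motifs, and no 2 matches in the 8 genes overlapped. A match describes letters and not binding.

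Nr1d1 (ENSMUSG00000020889, chromosome 11, 98767932 to 98775333, minus strand, GRCm38) measured 36.9 (wt1), 37.2 (wt2) and 28.95 (wt3) CPM (counts per 1000000 counts, scaled between libraries), against 103 (fx1), 91.0 (fx2) and 110 (fx3) CPM. Every fx/fx library lay far above every wt/wt library, and the spread within a genotype was small, with a coefficient of variation of 13.7% in wt/wt and 9.59% in fx/fx. The log2 fold change was 1.56 (SE 0.18), which is 2.95-fold. Left-out libraries moved it between 1.44 and 1.64. In bulk tumor RNA a change in the share of a cell type cannot be told apart from a change in RNA per cell. Nr1d1 shares 263 exon bases, 8.55% of its exon sequence, with the thyroid receptor gene Thra on the opposite strand, and Thra itself measured 37.9 ± 4.68 CPM (wt/wt) against 41.6 ± 10.8 CPM (fx/fx) (SD, n = 3 each; edgeR adjusted p = 0.836).

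Dbp (ENSMUSG00000059824, chromosome 7, 45705088 to 45710203, plus strand) encodes the PAR bZIP activator whose transcript is among the strongest cycling outputs of the clock in liver. It measured 62.4 (wt1), 57.1 (wt2) and 58.9 (wt3) CPM, against 192 (fx1), 100.01 (fx2) and 144 (fx3) CPM. The wt/wt libraries were nearly equal and the fx/fx libraries all lay above them, with fx1 highest and fx2 lowest among them. The log2 fold change was 1.29 (SE 0.25), or 2.44-fold, and was 1.02 without fx1. On the opposite strand Sphk2, a sphingosine kinase gene, shares 539 bases (18.0% of Dbp exon sequence), and it measured 73.5 ± 16.3 CPM (wt/wt) against 67.9 ± 3.07 CPM (fx/fx) (n = 3 each; edgeR adjusted p = 0.838).

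**Figure D1:**
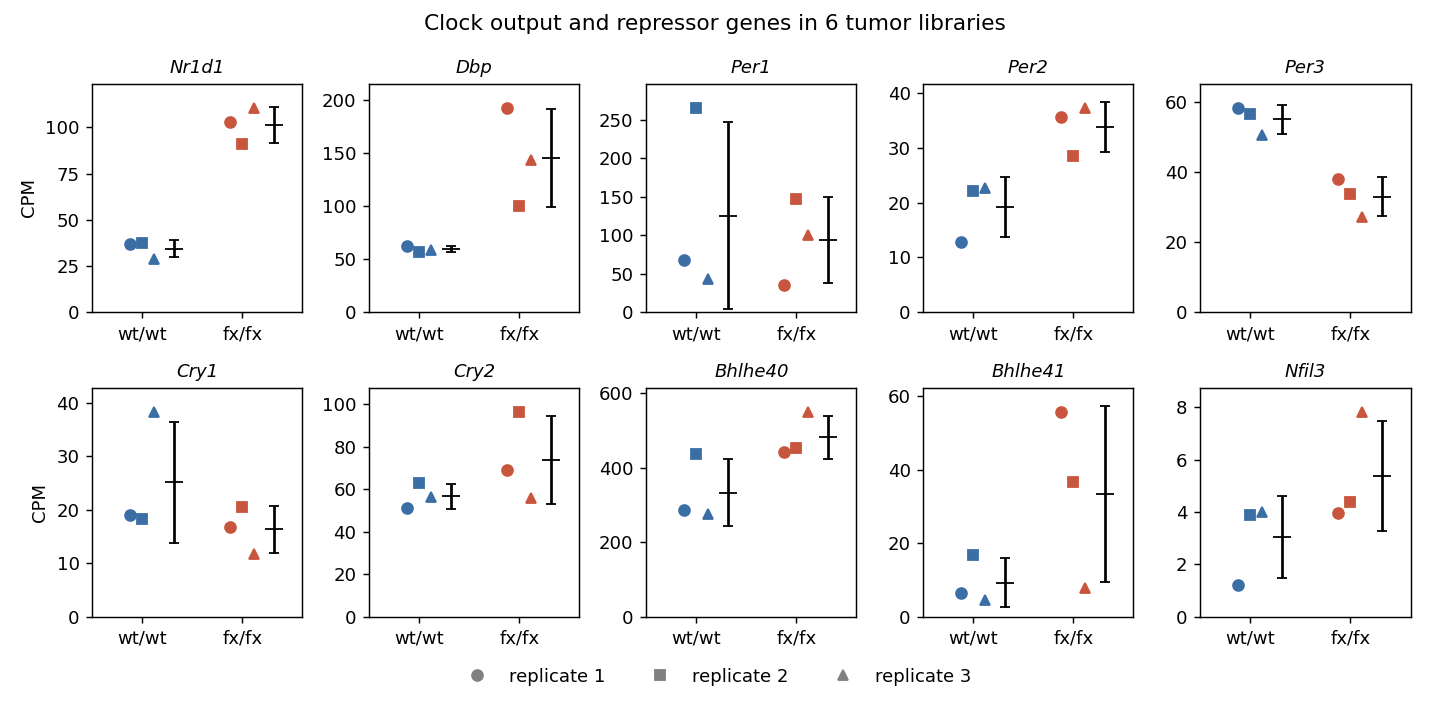
Level in CPM (vertical axes, each starting at 0) of each of the 10 clock genes in the 3 wt/wt (blue) and 3 fx/fx (red) libraries; marker shapes give the replicate number and black bars the mean ± SD. Nr1d1 ran from 28.95 to 37.2 CPM in wt/wt and from 91.0 to 110 CPM in fx/fx, whereas Per1 ranged from 43.3 to 265 CPM within wt/wt alone.

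The close relatives of these 2 genes were measured as well. Nr1d2, which encodes the second REV-ERB receptor, measured 151 (wt1), 199.6 (wt2) and 147 (wt3) CPM, against 190.2 (fx1), 145 (fx2) and 173 (fx3) CPM. Its genotypes overlapped, with a log2 fold change of 0.03 (SE 0.20; edgeR adjusted p = 0.963). Tef and Hlf, the other PAR bZIP activators, had log2 fold changes of 0.21 (SE 0.20) and -0.03 (SE 0.21), with edgeR adjusted p of 0.696 and 0.968. Ciart, a repressor of CLOCK and BMAL1, was scarce at 1.92 ± 0.588 CPM (wt/wt) against 2.98 ± 1.03 CPM (fx/fx) (n = 3 each; edgeR adjusted p = 0.540). Of these 4 relatives 0 had an unadjusted edgeR p under 0.05, where 8.18% of all genes were higher and 6.04% lower. The differences between these genes and Nr1d1 or Dbp were not tested, because Nr1d1 and Dbp were picked for their size.

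The period genes, which encode the repressors that pair with CRY proteins, went different ways. On GRCm38 they are annotated as Per1 (ENSMUSG00000020893) at 69095217 to 69109960 on chromosome 11, Per2 (ENSMUSG00000055866) at 91415982 to 91459324 on chromosome 1 and Per3 (ENSMUSG00000028957) at 151003652 to 151044665 on chromosome 4. Per2 measured 12.9 (wt1), 22.1 (wt2) and 22.6 (wt3) CPM, against 35.6 (fx1), 28.5 (fx2) and 37.2 (fx3) CPM, and did not pass the threshold of an adjusted p under 0.05 (log2 fold change 0.81, SE 0.26; adjusted p = 0.247 by edgeR and 0.123 by DESeq2). Every fx/fx library was above every wt/wt library. Per3 lay the other way, at 58.3 (wt1), 56.6 (wt2) and 50.5 (wt3) CPM, against 38.1 (fx1), 33.9 (fx2) and 27.1 (fx3) CPM. Its genotypes did not overlap either, and the difference did not pass (log2 fold change -0.74, SE 0.19; adjusted p = 0.193 by edgeR and 0.061 by DESeq2). Per1, the period gene with the most direct response to extracellular signals, varied most, with 68.2 (wt1), 265 (wt2) and 43.3 (wt3) CPM, against 35.8 (fx1), 147 (fx2) and 100.2 (fx3) CPM. Its log2 fold change of -0.41 (SE 0.76; edgeR adjusted p = 0.850) rested on wt2, and was 0.75 without that library.

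For each of the 3 period genes, the other genes of its region had a median difference of the same sign. Levels of protein-coding genes in the surrounding 20 Mb bin are given as the median log2 CPM relative to the wt/wt mean. Around Per3, on chromosome 4 from 140 to 160 Mb, the median of 120 other genes was -0.61 in fx1, -0.61 in fx2 and -0.90 in fx3, and between -0.04 and 0.07 in wt/wt. Less that median, the log2 fold change of Per3 was -0.06 and its genotypes overlapped. For Per2, on chromosome 1 from 80 to 100 Mb, the median of 62 other genes was 0.59, 0.50 and 0.61 in fx1, fx2 and fx3, with 0.56 in wt3 but -0.23 in wt1 and -0.35 in wt2. Per2 was left with a log2 fold change of 0.29 and overlapping genotypes. Per1 lies on chromosome 11 between 60 and 80 Mb, where the median of 199 other genes was -0.62 in fx1, -0.04 in fx2 and -0.83 in fx3, and its fold change less the median was 0.06. The cause of these regional shifts was not tested.

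The bins of Nr1d1 and Dbp had medians near 0 or below. In the Nr1d1 bin, from 80 to 100 Mb on chromosome 11, the median log2 fold change of 153 other genes was -0.16, and Nr1d1 exceeded it by 1.72. In the Dbp bin the median of 82 other genes was -0.03, with Dbp 1.32 above it. For both, all fx/fx libraries remained above all wt/wt libraries after the bin median was taken off. Both genes were picked for their rise, and medians this near 0 could hardly change that order, so it is a description. Less its bin median, of 23 other genes, Nr1d2 had that order too, at 0.39, 0.12 and 0.11 in fx1, fx2 and fx3. In wt1, wt2 and wt3 Nr1d2 was at 0.025, 0.033 and -0.10.

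**Figure D2:**
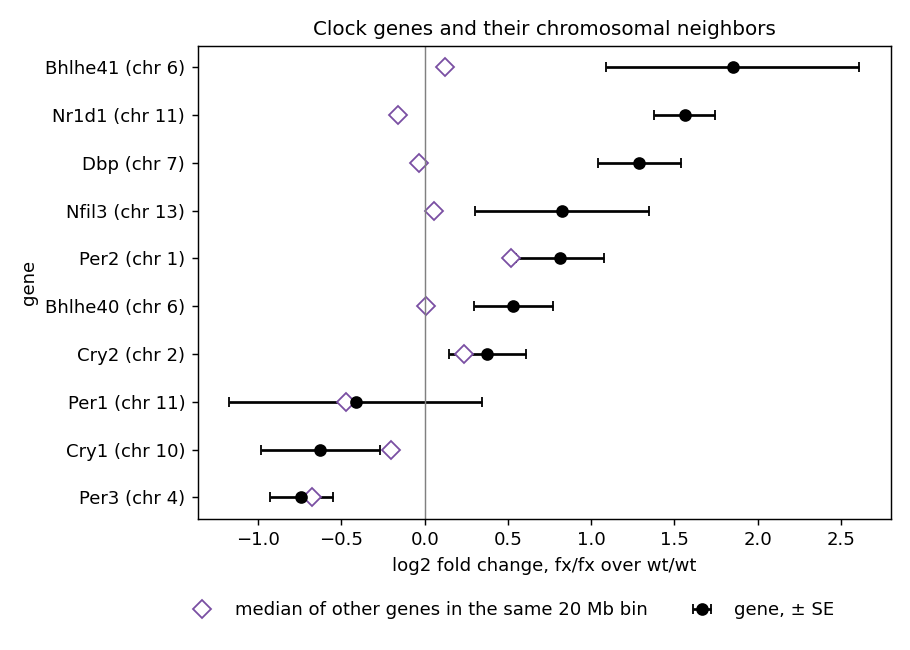
Log2 fold change of fx/fx over wt/wt (horizontal axis) for each clock gene (black, ± SE) and for the median of the other protein-coding genes in its 20 Mb bin (open diamonds). Less the bin median, the fold changes are -0.06 for Per3, 0.06 for Per1 and 0.29 for Per2. They are 1.73 for Bhlhe41, 0.77 for Nfil3, 0.52 for Bhlhe40, 0.14 for Cry2 and -0.42 for Cry1. For all of these genes the genotypes overlap after the bin median is taken off. Nr1d1 (1.56 against -0.16) and Dbp (1.29 against -0.03) lie well above their bins. Nr1d1 and Dbp were picked for their rise.

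Cry1 and Cry2 encode the cryptochromes, the main repressors of CLOCK and BMAL1. The annotation places Cry1 (ENSMUSG00000020038) at 85131700 to 85185064 on chromosome 10 and Cry2 (ENSMUSG00000068742) at 92403646 to 92434043 on chromosome 2. Cry1 measured 19.0 (wt1), 18.3 (wt2) and 38.3 (wt3) CPM, against 16.8 (fx1), 20.5 (fx2) and 11.6 (fx3) CPM (log2 fold change -0.63 with SE 0.36, and edgeR adjusted p = 0.475). The groups overlapped, wt3 being high and fx3 low, and without wt3 the log2 fold change was -0.20. Cry2 had a log2 fold change of 0.38 (SE 0.23; edgeR adjusted p = 0.508), with 51.0 to 62.8 CPM (wt/wt) against 55.8 to 96.1 CPM (fx/fx). Its highest library, fx2, was also the one in which its neighbors on chromosome 2 were highest, with a bin median of 0.44. D930015M05Rik, which shares 295 exon bases with Cry2 on the opposite strand, had 1 to 9 counts per library, and no exon bases of Per3 are shared with Camta1, which spans it.

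Bhlhe40 and Bhlhe41 encode E-box repressors that many signals, hypoxia among them, induce. Both lie on the same chromosome, with Bhlhe40 (ENSMUSG00000030103) at 108660629 to 108666925 on chromosome 6 and Bhlhe41 (ENSMUSG00000030256) at 145858243 to 145865558 on chromosome 6. Bhlhe40 measured 286 (wt1), 436 (wt2) and 276 (wt3) CPM, against 443 (fx1), 452 (fx2) and 549 (fx3) CPM. The genotypes were separated by a narrow gap between wt2 and fx1, and the difference did not pass (log2 fold change 0.53, SE 0.24; edgeR adjusted p = 0.367). Its bin had a median log2 fold change of 0.01, and less that median the fold change of Bhlhe40 was 0.52. The genotypes then overlapped, with wt2 at 0.42 and fx1 at 0.32. Bhlhe41 had the highest fold change of the 10 genes. It measured 6.43 (wt1), 16.8 (wt2) and 4.56 (wt3) CPM, against 55.6 (fx1), 36.7 (fx2) and 7.84 (fx3) CPM. Only fx1 and fx2 lay above all wt/wt libraries, fx3 lay below wt2, and the log2 fold change of 1.85 (SE 0.76) did not pass (adjusted p = 0.336 by edgeR and 0.0905 by DESeq2). It was 2.60 without wt2 and 1.26 without fx1. Gm43909, on the opposite strand over 1280 exon bases of Bhlhe41, had 0 to 30 counts per library.

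Nfil3 (ENSMUSG00000056749, chromosome 13, 52967209 to 52981073), the repressor that competes with DBP for the D-box, was the scarcest member in absolute counts, with 55 to 322 read pairs per library. It measured 1.22 (wt1), 3.89 (wt2) and 3.996 (wt3) CPM, against 3.97 (fx1), 4.37 (fx2) and 7.81 (fx3) CPM, with wt1 low and fx3 high. The log2 fold change was 0.83 (SE 0.52; edgeR adjusted p = 0.521) and 0.45 without wt1.

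Among the 8 genes not picked on their values, edgeR called 0 at an adjusted p under 0.05, as it did among all 16752 genes (0%). DESeq2 called 0 of the 8, where it called 2.9% of genes higher and 1.73% lower. That 0 changed with 1 library left out: DESeq2 then called Bhlhe41 without wt2 or without fx3 (lowest adjusted p = 0.00348), Per3 without fx1 (adjusted p = 0.0349) and Bhlhe40 without wt2 (adjusted p = 0.0493). At an unadjusted edgeR p under 0.05, Per2 and Bhlhe41 were higher and Per3 was lower in fx/fx, so 2 of 8 and 1 of 8, where 8.18% of all genes were higher and 6.04% lower by that rule. Genotypes did not overlap for Per2 and Bhlhe40, higher in fx/fx, and Per3, lower, against 9.74% and 9.93% of all genes. The median log2 fold change of the 8 genes was 0.46, beside -0.00 over all genes tested. Beyond the 0 adjusted calls, 2381 genes had an unadjusted edgeR p under 0.05, limma-voom called 0 and DESeq2 called 833.

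The activators and the ROR receptors form the other arm of the loop. Arntl measured 31.5 (wt1), 17.4 (wt2) and 28.3 (wt3) CPM, against 23.8 (fx1), 20.1 (fx2) and 21.03 (fx3) CPM (log2 fold change -0.25 with SE 0.25, and edgeR adjusted p = 0.709). The fx/fx values lay inside the wt/wt range. Clock had a log2 fold change of 0.30 (SE 0.20; edgeR adjusted p = 0.554). Npas2, the partner that can replace CLOCK, measured 3.77 (wt1), 6.12 (wt2) and 3.25 (wt3) CPM, against 1.37 (fx1), 3.86 (fx2) and 1.29 (fx3) CPM. It was lowest in fx1 and fx3, while fx2 lay within the wt/wt range, and it did not pass (log2 fold change -1.01, SE 0.53; edgeR adjusted p = 0.437). Without fx2 the log2 fold change of Npas2 was -1.72 (edgeR adjusted p = 0.124), and DESeq2 then called it (adjusted p = 0.00156). Without wt2 it was -0.70. Rora, which activates the elements that REV-ERB represses, was level at 103 ± 7.36 and 102 ± 2.37 CPM (n = 3 each; edgeR adjusted p = 0.985). Arntl2 and Rorb had at most 0.207 and 0.179 CPM in any library and did not pass the filter. Of the 5 measured genes of this list, 0 had an unadjusted edgeR p under 0.05. Over all genes, 8.18% were higher and 6.04% lower in fx/fx by that rule.

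**Figure D3:**
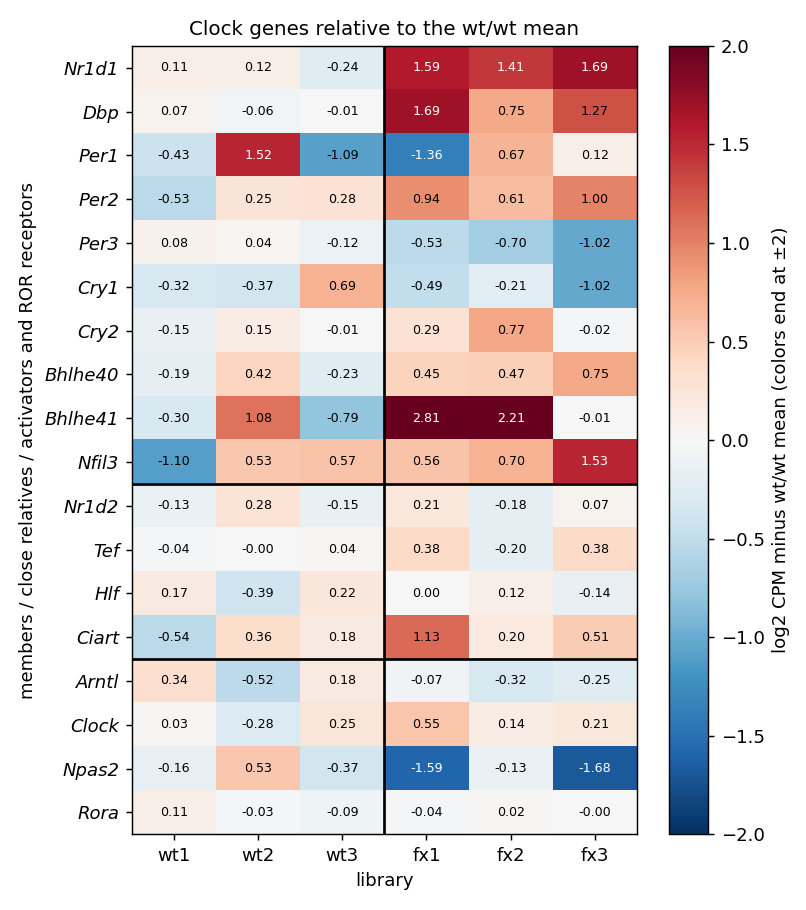
Log2 CPM minus the wt/wt mean (color and printed value; colors end at ±2) for the 10 clock genes, their 4 relatives and 4 activators and ROR receptors (rows) in each library (columns). Nr1d1 is at 1.41 to 1.69 and Dbp at 0.75 to 1.69 in fx/fx, whereas Arntl is between -0.32 and -0.07 there and between -0.52 and 0.34 in wt/wt.

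In a running clock, ratios of genes that peak at different times move with phase. Library scaling does not enter them, since both genes are read in the same library. A change in 1 of the genes or in cell makeup moves them too, and whether these tumors hold a running clock was not tested. The difference between libraries in such a log2 ratio does not depend on gene length, although its level does. For Nr1d1 over Arntl the log2 ratio was 0.23, 1.09 and 0.03 in wt1, wt2 and wt3 and 2.11, 2.18 and 2.39 in fx1, fx2 and fx3. All 3 fx/fx libraries lay above all wt/wt libraries, by 1.78 on average (wt/wt SD 0.57, fx/fx SD 0.14). Nr1d1 over Npas2 was also separated, with means of 3.00 ± 0.36 in wt/wt and 5.70 ± 1.01 in fx/fx (SD, n = 3 each).

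Of the other 3 ratios, 1 had that order. Per2 over Arntl was also higher in every fx/fx library, at 0.64 ± 0.17 against -0.42 ± 0.82 (SD, n = 3 each), with a gap between wt2 at 0.35 and fx2 at 0.50. Per3 over Arntl was lower in every fx/fx library, at 0.60 ± 0.21 against 1.14 ± 0.48 (SD, n = 3 each). Dbp over Nfil3, the activator and the repressor of the D-box, overlapped between genotypes, with 5.63, 3.86 and 3.87 in wt1, wt2 and wt3 and 5.58, 4.50 and 4.19 in fx1, fx2 and fx3. No test was made on these ratios, because they hold genes chosen with their values known, and Per2 and Per3 carry the regional shifts given above.

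**Figure D4:**
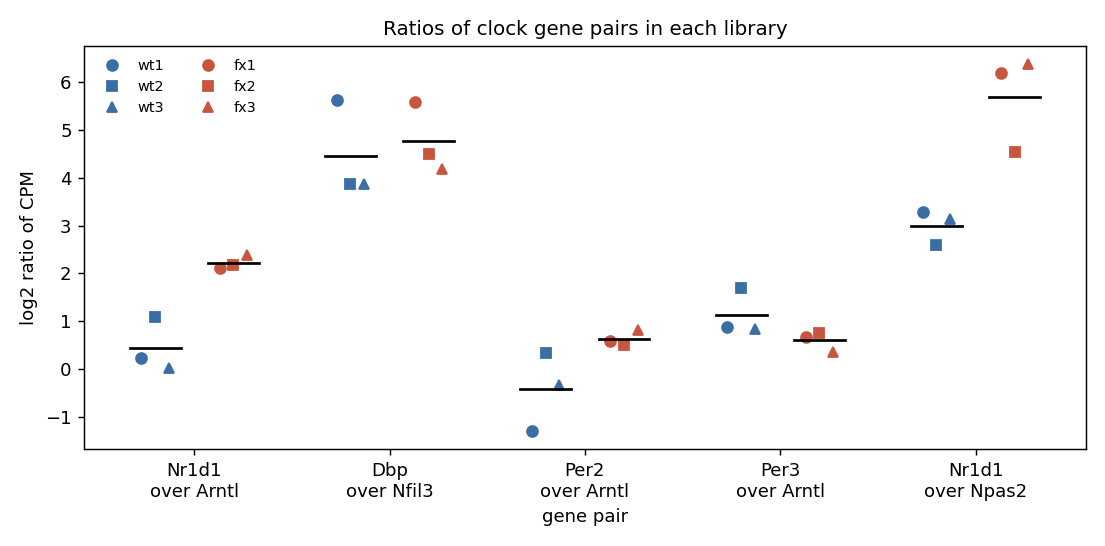
Log2 ratio of the CPM values of 2 clock genes (vertical axis) for 5 gene pairs, with points for the 3 wt/wt (blue) and 3 fx/fx (red) libraries and bars at the genotype means. Nr1d1 over Arntl runs from 0.03 to 1.09 in wt/wt and from 2.11 to 2.39 in fx/fx, and Dbp over Nfil3 overlaps.

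Within a genotype the clock genes did not peak in 1 common library. In fx/fx the highest library was fx1 for 3 genes (Dbp, Per3 and Bhlhe41), fx2 for 3 (Per1, Cry1 and Cry2) and fx3 for 4 (Nr1d1, Per2, Bhlhe40 and Nfil3). In wt/wt it was wt2 for 5 genes (Nr1d1, Per1, Cry2, Bhlhe40 and Bhlhe41), wt3 for 3 (Per2, Cry1 and Nfil3) and wt1 for 2 (Dbp and Per3).

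Levels between genes were compared as CPM per kb of exon, with the exon length of the count files, which sums all annotated exons. In wt/wt tumors the order from the top was Bhlhe40 (70.7 ± 19.0 CPM per kb), Per1 (22.3 ± 21.6), Dbp (19.9 ± 0.903), Nr1d1 (11.2 ± 1.52), Cry2 (8.97 ± 0.937), Cry1 (7.54 ± 3.39), Per3 (5.74 ± 0.427), Per2 (3.28 ± 0.940), Nfil3 (1.497 ± 0.776) and Bhlhe41 (1.38 ± 0.983; SD, n = 3 each). Neighbors in this order overlapped between libraries except Bhlhe40 and Per1, Dbp and Nr1d1, Per3 and Per2, and Per2 and Nfil3. In fx/fx tumors Bhlhe40 was again highest, at 102 ± 12.4 CPM per kb, and Dbp (48.6 ± 15.5) and Nr1d1 (33.0 ± 3.16) came next, above Per1 (16.7 ± 9.91). Per2 (5.76 ± 0.793) had a higher mean there than Per3 (3.44 ± 0.578), the opposite of their order in wt/wt, and the libraries of these 2 genes did not overlap in either genotype.

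Genes that act on PER and CRY proteins were measured in all 11 cases. At an unadjusted edgeR p under 0.05, 8.18% of all genes were higher and 6.04% lower in fx/fx. By that rule 1 of the 11 was higher and 0 lower. That gene was Gsk3b, a kinase of several clock proteins, at 144 ± 1.27 CPM (wt/wt) against 203 ± 41.6 CPM (fx/fx) (n = 3 each; edgeR adjusted p = 0.320). The casein kinases Csnk1d and Csnk1e, which mark PER proteins for degradation, had log2 fold changes of 0.22 (SE 0.15) and 0.32 (SE 0.18), and Usp2, a deubiquitinase, had -0.37 (SE 0.30), with edgeR adjusted p of 0.570, 0.483 and 0.629. The median of this list was -0.02. Of 6 other clock outputs, 1 was at an unadjusted p under 0.05: Noct, which encodes the rhythmic protein nocturnin, measured 3.10 ± 1.33 CPM (wt/wt) against 5.95 ± 0.467 CPM (fx/fx) (n = 3 each; edgeR adjusted p = 0.321). Por, Nampt and Cdkn1a had log2 fold changes of 0.23, -0.21 and -0.07, with edgeR adjusted p from 0.614 to 0.965.

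Signals from outside the clock reach Per1 and the Bhlhe genes, so lists of their targets were read as well. Over all genes, 8.18% were higher and 6.04% lower in fx/fx at an unadjusted edgeR p under 0.05. DESeq2 called 2.9% of genes higher and 1.73% lower. Of 7 glucocorticoid response genes, 2 were at an unadjusted edgeR p under 0.05, both higher in fx/fx: Dusp1, a phosphatase of MAP kinases, at 9.50 ± 3.70 against 17.9 ± 3.11 CPM (n = 3 each; edgeR adjusted p = 0.276), and Sgk1, a kinase, with a log2 fold change of 0.81 (SE 0.34; edgeR adjusted p = 0.340). Klf9 and Fkbp5 had log2 fold changes of 0.40 and 0.49, with edgeR adjusted p of 0.505 and 0.515. Of 6 CREB and serum response genes, Egr1 and Junb were at that level, both higher. Egr1 measured 43.0 (wt1), 72.2 (wt2) and 53.3 (wt3) CPM, against 98.7 (fx1), 119 (fx2) and 96.5 (fx3) CPM (edgeR adjusted p = 0.193). DESeq2 called Egr1 (adjusted p = 0.041), and the call was lost without any 1 library other than wt2. Of 8 hypoxia response genes, 1 was at an unadjusted p under 0.05: Adm, adrenomedullin, had a log2 fold change of 1.64 (SE 0.47; edgeR adjusted p = 0.220) and a DESeq2 call (adjusted p = 0.019) that was lost without wt1, wt3, fx2 or fx3. Bnip3, Egln3 and Slc2a1 had log2 fold changes of 0.72, 0.38 and -0.49, with edgeR adjusted p of 0.438, 0.475 and 0.577. Medians were 0.49, 0.24 and 0.45 for the glucocorticoid, CREB and hypoxia lists.

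Per1 and Sik1, a kinase gene that CREB induces, were highest in the same library. Sik1 measured 109 (wt1), 1030 (wt2) and 36.4 (wt3) CPM, against 39.8 (fx1), 171 (fx2) and 348 (fx3) CPM (log2 fold change -1.07 with SE 1.24, and edgeR adjusted p = 0.753). For both genes wt2 was highest, fx2 and fx3 came next, wt1 followed, and wt3 and fx1 were lowest. Nr4a1, another early gene, was more even, with 187 to 237 CPM (wt/wt) against 211 to 339 CPM (fx/fx). A high wt2 was not particular to Sik1 or to its list. Of the glucocorticoid list, Tsc22d3, Zbtb16, Dusp1 and Mt2 were also highest in wt2 within wt/wt, and Fkbp5, Sgk1 and Klf9 in wt3. The cause of the Per1 level in wt2 was not tested.

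**Figure D5:**
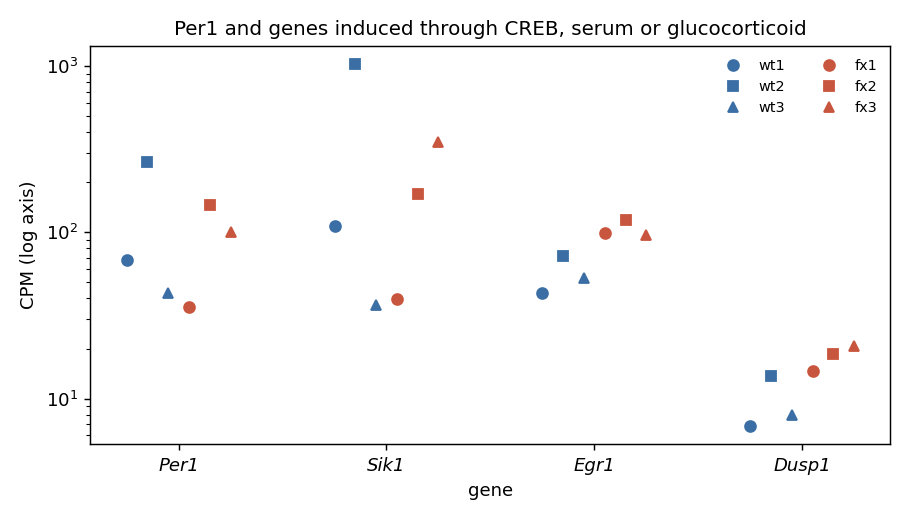
CPM on a log axis of Per1, Sik1, Egr1 and Dusp1 in each of the 6 libraries (blue wt/wt, red fx/fx; shapes give replicate numbers). Per1 and Sik1 are highest in wt2 (265 and 1030 CPM), whereas Egr1 and Dusp1 are higher in each fx/fx library than in each wt/wt library.

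Protein-coding genes of moderate or high level (mean log2 CPM above 3; 9990 genes) were ranked by Pearson correlation with Nr1d1 over the 6 libraries, which share the genotype contrast, so high values are common and carry no test. Among the 5 most alike were Elovl6 (r = 0.987), Sema4c (0.983), Agps (0.982) and Sfswap (0.982). For Dbp the 5 most alike were Foxp4 (r = 0.998), Adamts12 (0.998), Manba (0.996), Kctd10 (0.994) and Ext2 (0.992). Adamts12, a secreted metalloprotease gene, measured 12.9 (wt1), 12.6 (wt2) and 12.6 (wt3) CPM, against 49.8 (fx1), 25.3 (fx2) and 37.3 (fx3) CPM. Dbp ranked 58 for Nr1d1 (r = 0.928), and Nr1d1 ranked 150 for Dbp. Per3 was near the other end for Nr1d1 (r = -0.903, rank 9782).

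The genotype label was read from Arhgap31, which measured 433 to 664 CPM (wt/wt) against 44.1 to 156 CPM (fx/fx) (log2 fold change -2.38, SE 0.45; adjusted p = 0.153 by edgeR and 4.7e-05 by DESeq2). The sources used here do not give the exons that the fx allele covers. Library depth ran from 36732137 to 53606276 counts, and mitochondrial genes took 1.81% to 2.93% of them. All 7 luminal epithelial markers were measured, with a summed level of 4454 to 6475 CPM (wt/wt) against 5894 to 7230 CPM (fx/fx). Of these, 1 was higher in fx/fx at an unadjusted edgeR p below 0.05: Krt19, a keratin named after its values were seen, with a log2 fold change of 1.17 (SE 0.36; adjusted p = 0.237 by edgeR and 0.0233 by DESeq2). Marker levels of some other cell types also differed between the genotypes. By the unadjusted rule used for Krt19, 8.18% of all genes were higher and 6.04% lower in fx/fx. Of 7 fibroblast markers, 6 were higher in fx/fx with an unadjusted edgeR p under 0.05, and their summed level was 295 to 511 CPM (wt/wt) against 802 to 1465 CPM (fx/fx). Adipocyte markers (3 of 5 higher at that level) summed to 15.5 to 39.0 CPM and 50.8 to 160 CPM, and endothelial markers (3 of 5) to 81.1 to 103 CPM and 94.5 to 186 CPM. Macrophage markers (1 of 4) summed to 87.8 to 139 CPM (wt/wt) against 84.8 to 173 CPM (fx/fx). Of 4 mast cell markers 3 passed the filter and 2 were higher at that level. Their summed level of 621 to 1381 CPM (wt/wt) against 559 to 733 CPM (fx/fx) was nearly all Kit, and Ms4a2 was at 0 in all wt/wt libraries. T cell, B cell and muscle markers had 0 genes at that level, and 0 of 3 B cell markers passed the filter. T cell markers summed to at most 2.92 CPM and B cell markers to at most 0.241 CPM, with Cd79a at 0 in some libraries. Muscle markers reached 28.7 CPM in fx2, with Myh4 at 0 in some. Within fx/fx, fx2 had the highest fibroblast (1465 CPM) and adipocyte (160 CPM) sums and the lowest Nr1d1 (91.0 CPM) and Dbp (100.01 CPM). The endothelial sum was highest in fx1 (186 CPM, against 168 in fx2 and 94.5 in fx3), as was Dbp (192 CPM). Dbp was higher in fx3 (144 CPM) than in fx2, the opposite of the endothelial sum. Nr1d1 was highest in fx3 (110 CPM), where the endothelial and fibroblast (802 CPM) sums were lowest within fx/fx. Of the fibroblast markers only Pdgfrb, named after its values were seen, was highest in fx1 (50.1 CPM, against 36.3 in fx2 and 22.1 in fx3). The others, Col1a1, Col1a2, Col3a1, Dcn, Lum and Pdgfra, were each highest in fx2 within fx/fx. The part of cell makeup in the clock gene values was not tested.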

How the data were processed

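RNA from 6 tumor libraries, 3 per genotype, was sequenced. The deposited values are raw counts of read pairs per gene, made by the authors with featureCounts 1.6.0 on Ensembl 93 (GRCm38) with strand option 2, both ends aligned and chimeric pairs left out, per the file headers. STAR 2.5.1b is among the tools in the submitters' processing notes, which give featureCounts as 1.4.6, so its version differs between sources. The sources used here do not name the library kit. As a check of strand, 0610040F04Rik, antisense to Bhlhe40 over 118 exon bases, had 4 to 20 counts per library, where Bhlhe40 had 12660 to 23537.

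GENCODE M21 gave symbols for 54165 of 54232 identifiers. Counts were fitted across all genes with edgeR 4.0.16 in R 4.3.3 (filterByExpr, TMM, quasi-likelihood with robust=TRUE, 2-sided, Benjamini-Hochberg). SE is the log2 fold change over the square root of F. CPM uses TMM-scaled totals. Log2 CPM used a prior count of 2. At these depths 3 counts, the limit that a count of 0 allows, are 0.0560 to 0.0817 CPM (counting error only). DESeq2 1.42.0, limma 3.58.1 (voom), RLE scaling, no filter, a replicate block and leaving out each library were alternatives.

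The clock genes and lists were chosen with earlier results of these data known. Named are the 10 genes, all activators, ROR receptors and close relatives, up to 4 genes with the smallest edgeR p of each other list, genes overlapping any of the 10, Arhgap31, and the 5 genes most correlated with Nr1d1 and with Dbp. Bins were chosen after the data were seen. Some genes that this rule names are not reported here.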

Additional observations from a re-analysis of the deposited data

How the results depend on the processing

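With edgeR 0 genes passed in all, and 0 also passed with limma-voom, RLE scaling and the replicate block. DESeq2 called 833 genes and edgeR with no filter on low counts 38. Leaving out 1 library gave 0 to 2 edgeR calls, the 2 without fx2, and 412 to 1626 DESeq2 calls. Same-numbered libraries had correlations of deviations of -0.078, -0.092 and -0.007, none over 0.1, so the numbers were not taken to pair the samples. Between other numbers the values were 0.30 for wt1 and fx2, 0.214 for wt2 and fx3 and 0.203 for wt3 and fx1. The remaining pairs were below 0. Deviations were taken from the genotype mean of each gene, so positive and negative values in this set offset each other by construction. The values alone therefore cannot show that libraries share anything. Whether libraries do so was not tested, and the fit does not model it. With the replicate block 2081 genes were at an unadjusted p under 0.05, against 2381 without it.

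Directions reversed for values near 0 or resting on 1 library. With 1 library left out, the log2 fold change ran from -0.88 to 0.75 for Per1, -0.067 to 0.046 for Rora, -0.075 to 0.18 for Nr1d2, -0.20 to 0.068 for Hlf, -0.44 to 0.21 for Nampt, -0.47 to 0.61 for Cdkn1a and -1.89 to 1.36 for Sik1. The difference in Dbp over Nfil3 ran from -0.10 to 0.90, below 0 without fx1. Cdkn1a was at 0.034 with limma-voom and 0.029 with the replicate block, and Per1 at 0.061 less its bin median, an alternative chosen after seeing the data. The cause was not tested. Under DESeq2, Arhgap31, Egr1 and Adm passed. With 1 library left out DESeq2 also called Gsk3b (without fx2), Noct and Sgk1 (without wt3) and Dusp1 (without wt2), all higher in fx/fx. Without fx2 it called Slc2a1 as well, lower in fx/fx. Nfil3, at 55 to 322 counts, is the least deeply counted of the 10 genes.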
